A study of Mus musculus with 12 samples.

Results

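ATF4 targets and unfolded protein response genes were followed across mouse leukemic cells with an intact, a floxed or a Cre-treated Hoxa cluster. The set was a list of 47 genes, matched by symbol. Of these, 46 had a row, and all 46 averaged at least 1 FPKM (fragments per kilobase, corrected for depth), so they were among the 13169 genes tested of 25263 symbols. *Slc7a5* is not analysed here. By role the 46 comprised 10 stress regulators, 8 amino acid and one-carbon enzymes, 3 amino acid transporters, 4 aminoacyl-tRNA synthetases, 4 unfolded protein response sensors and *Xbp1*, 11 endoplasmic reticulum (ER) chaperones and cochaperones, 3 protein disulfide isomerases and 3 genes of ER-associated degradation.

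The 12 libraries were of leukemic stem and progenitor cells of adult mouse bone marrow, all with MLL-AF9 (MA9), which is a fusion oncoprotein of acute leukemia. WT-GFP and WT-Cre cells had a wild type Hoxa cluster (strain C57BL/6) and received a control retrovirus or one for Cre recombinase. Hoxa-flox and Hoxa-del cells (strain C57BL/6J) had a floxed Hoxa cluster, which Cre can delete, and received the control and the Cre virus in that order. Before infection all were kept overnight with SCF, GM-CSF, IL-6 and IL-3, and infected cells were sorted for high GFP; each of the 4 groups had 3 libraries. The labels do not say whether libraries of a group, or the WT and floxed cells, came from separate leukemias, animals or cultures. The genotype comparisons therefore contrast 2 sources of cells as well as 2 Hoxa alleles, and these cannot be told apart.

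The integrated stress response begins with kinases that phosphorylate the initiation factor eIF2α, among them GCN2 in amino acid shortage and PERK in ER stress. Most translation then slows, while ATF4 is made and switches on genes for amino acid synthesis, amino acid uptake and tRNA charging. The unfolded protein response has 2 further sensors, IRE1α and ATF6, which act through spliced XBP1 and cleaved ATF6 to raise chaperones and degradation factors of the ER. Both responses are active in many leukemias and in secretory and rapidly growing cells. Since ATF4, XBP1 and ATF6 are regulated by translation, splicing and cleavage, their mRNA levels are not a measure of their activity.

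*Hoxa9*, a gene of the targeted cluster, stood at 235, 217 and 257 FPKM in Hoxa-flox and at 83.5, 114 and 119 in Hoxa-del, so the floxed cells differed in the labelled direction but kept part of the transcript. Estimated depth ran from 4.36 M fragments (WT-Cre 2) to 20.7 M (WT-GFP 3). On the first principal component of the 6 floxed-genotype libraries (64.4% of variance), Hoxa-flox 1, Hoxa-flox 2 and Hoxa-del 2 stood apart from Hoxa-flox 3, Hoxa-del 1 and Hoxa-del 3. These sets cut across the virus. *Mki67*, a proliferation marker, was at 16.4, 14.9 and 17.8 FPKM in the first set and at 88.5, 84.6 and 93.2 in the second, against 65.1 to 78.2 in the 6 WT libraries. The 10 myeloid markers summed to 3343 to 6737 FPKM per library, mostly from *Elane*, *Prtn3* and *Ctsg*. In Hoxa-flox 5 of them were called lower than in WT-GFP (*Csf3r*, *Myb*, *Mpo*, *Ptprc* and *Elane*) and *Meis1* higher, and in Hoxa-del 4 lower than in WT-Cre and *Meis1* higher. Of all genes, 13.5% and 14.2% were called lower in these comparisons, and 13.3% and 13% higher. *Mpo*, myeloperoxidase, was at 4.42, 3.80 and 31.1 FPKM in Hoxa-flox and at 407, 12.5 and 98.2 in Hoxa-del, against 179.7 to 326 in WT libraries. Summed macrophage markers ran from 225 to 260.1 FPKM in the WT libraries and from 50.3 to 127 in the floxed-genotype libraries, where *C1qa*, *C1qb* and *C1qc* were at or near 0. Of 7 macrophage markers, 6 were called lower in Hoxa-flox than in WT-GFP (13.5% of all genes). In Hoxa-del 5 were called lower than in WT-Cre (14.2% of all genes). *C1qa*, *C1qb*, *C1qc*, *Msr1* and *Mrc1* passed the filter on low values only through the WT groups, so their calls are a description and carry no test here. The seventh, *Adgre1* (F4/80), was not called. It was at 97.1, 99.4 and 95.3 FPKM in the low *Mki67* set and at 29.2 to 42.9 in the other, against 41.1 to 48.2 in WT libraries, and made up most of the sum in each floxed-genotype library except Hoxa-del 1. The part of cell composition in the genotype differences given here was not tested, and in bulk RNA fewer cells of a type and less RNA per cell cannot be told apart.

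Promoter sequence was looked at next. The list holds known genes of these pathways, and the elements searched for are sites of the factors of the same pathways. The shares below are therefore a description of the list and no independent support for it. RefSeq promoters (GRCm38.p6, 250 bases before to 50 after the start site) were matched for 42 of the 47 genes and searched on both strands. The ER stress element, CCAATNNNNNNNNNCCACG, is a site bound by NF-Y together with ATF6 or XBP1. It was present in 7 of the 42 members (16.7%) and in 34 of all 27025 promoters (0.126%). Its parts are common: CCAAT was in 66.7% of members and 37.8% of all promoters, and CCACG in 76.2% and 32.4%. All 7 fall in the chaperone or disulfide isomerase roles. Their matches are shown with 5 flanking bases, on the strand that reads CCAAT first, with the fixed letters in capitals.
Hspa5, chr2:34772020-34772048 (+): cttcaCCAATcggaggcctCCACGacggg
Calr, chr8:84847070-84847098 (+): atgggCCAATgagggtcgaCCACGcgttg
Canx, chr11:50325795-50325823 (-): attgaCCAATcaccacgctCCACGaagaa
Creld2, chr15:88819515-88819543 (-): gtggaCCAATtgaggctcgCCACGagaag
Dnajc3, chr14:118937822-118937850 (+): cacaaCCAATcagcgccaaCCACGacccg
Pdia6, chr12:17266486-17266514 (+): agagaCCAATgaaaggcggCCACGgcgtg
Hsp90b1, chr10:86705633-86705661 (-): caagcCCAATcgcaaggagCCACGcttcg
Hsp90b1, chr10:86705528-86705556 (+): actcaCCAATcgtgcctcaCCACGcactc
*Hsp90b1* held 2 elements, on opposite strands. They are shown in their context, 185 bases upstream of the annotated exons, in which the second element reads on the reverse strand as the capitals CGTGG and ATTGG.
Hsp90b1 upstream, chr10:86705510-86705694 (-): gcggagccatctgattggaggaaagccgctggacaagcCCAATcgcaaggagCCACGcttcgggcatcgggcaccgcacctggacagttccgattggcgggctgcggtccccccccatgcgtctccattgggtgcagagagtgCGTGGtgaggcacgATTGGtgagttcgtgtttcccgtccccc

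The core TGATGNAA is shared by the composite elements that bind ATF4 or CHOP with a C/EBP partner. It was present in 9 of the 42 members (21.4%) and in 1100 of all 27025 promoters (4.07%). These 9 were regulators (*Chac1*, *Trib3*, *Nupr1*), amino acid genes (*Asns*, *Pycr1*, *Slc7a11*), tRNA synthetases (*Aars*, *Gars*) and the ER gene *Herpud1*. None of the 9 held the ER stress element in this window. The matches of 6 of them are shown with 10 flanking bases, since their genes recur in the results. *Slc7a11* held 2, whose windows overlap.
Asns, chr6:7693215-7693242 (-): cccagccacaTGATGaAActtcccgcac
Chac1, chr2:119351039-119351066 (-): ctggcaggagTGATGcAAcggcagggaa
Trib3, chr2:152344029-152344056 (+): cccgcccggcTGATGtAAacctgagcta
Slc7a11, chr3:50443662-50443689 (-): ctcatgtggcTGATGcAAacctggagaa
Slc7a11, chr3:50443643-50443670 (+): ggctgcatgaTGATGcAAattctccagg
Pycr1, chr11:120643834-120643861 (-): gccctgtgtaTGATGcAAtgcacaaggc
Gars, chr6:55037961-55037988 (-): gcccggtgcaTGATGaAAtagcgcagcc
The stretch before *Chac1* (237 bases), the gene with the widest range among these in the floxed cells bar *Trib3*, gives the longer context, and its core reads TTgCATCA on the strand of the gene.
Chac1 upstream, chr2:119350992-119351228 (+): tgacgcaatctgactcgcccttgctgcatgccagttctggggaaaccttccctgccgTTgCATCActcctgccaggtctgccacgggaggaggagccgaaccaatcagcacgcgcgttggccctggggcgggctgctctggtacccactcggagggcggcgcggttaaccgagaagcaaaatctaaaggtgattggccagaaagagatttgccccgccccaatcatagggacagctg
The XBP1 core TGACGTG was in 1 member promoter (*Hspa5*) and in 1.92% of all. A match describes the letters only, and no binding was measured.

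Levels spanned a wide range in the leukemic cells. Per length, the ER chaperone mRNAs were the most abundant members: *Calr*, a lectin chaperone, averaged 580.2 ± 49.1 FPKM in WT-GFP (SD, n = 3), *Hyou1* 354 ± 32.5, *Hspa5* (BiP, the main ER chaperone) 308 ± 12.8, *Canx* 239 ± 16.5 and *Hsp90b1* 233 ± 10.9. *Atf4* averaged 170.4 ± 6.78 FPKM and *Xbp1* 130.05 ± 4.51. *Ddit3* (CHOP), the stress factor downstream of ATF4, was low at 12.5 ± 1.67, and the lowest members with signal in WT cells were *Trib3*, *Slc7a11* and *Pycr1*, at 5.21 ± 0.784, 5.01 ± 0.540 and 3.74 ± 0.808. *Hyou1* had a further row at 54.4 to 89.4 FPKM, so the level of that gene is uncertain. *Ddit3* overlaps *Mars* on the other strand, and although the library kit was stranded, use of strand in counting is not given in the sources used here.

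**Figure D1:**
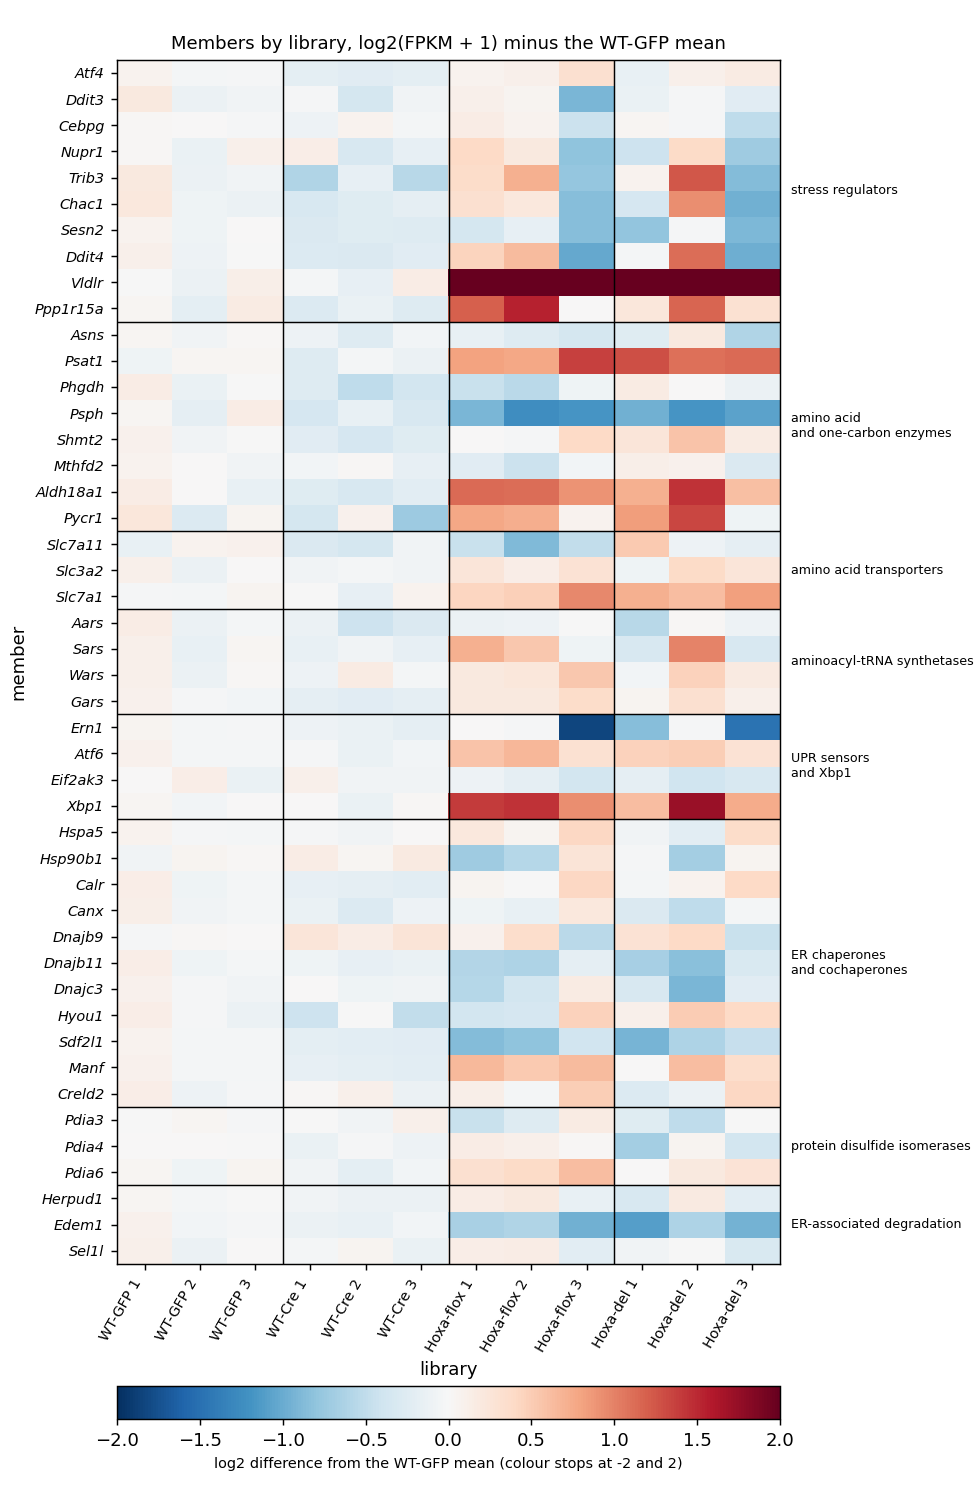
Level of each of the 46 members (rows, by role) in each of the 12 libraries (columns), as log2(FPKM + 1) minus the WT-GFP mean; colour stops at -2 and 2. The WT libraries are pale throughout, *Vldlr*, *Xbp1*, *Psat1* and *Aldh18a1* are red and *Psph* and *Edem1* blue in all 6 floxed-genotype libraries, and *Chac1*, *Trib3* and *Ddit4* change colour among them.

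Cre in floxed cells, the comparison of Hoxa-del with Hoxa-flox, moved no member past the threshold. With limma, 0 of 46 members had an adjusted p under 0.05, against 4 of all 13169 genes (0.0304%). At an unadjusted p under 0.05 there were 3 members (6.52%), near the 6.27% of all genes. The median member differed by -0.10 on the log2 scale and the median gene by -0.06. The members' median ran from -0.16 without Hoxa-del 2 to -0.03 without Hoxa-del 1, where the median gene was at -0.09 and -0.03, and a model that also held the library set gave -0.02 for members and -0.03 for genes. Libraries of the groups did not overlap for 1 member in the higher direction (2.25% of all genes) and 1 in the lower (4.14%).

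These members, *Slc7a11* and *Pdia6*, and the other pair with the smallest p, *Pdia4* and *Phgdh*, went in different directions. *Slc7a11*, the cystine importer xCT (chr3:49892526-50443614), was at 3.38, 2.24 and 3.24 FPKM in Hoxa-flox and at 7.61, 4.59 and 4.28 in Hoxa-del. All 3 Hoxa-del libraries lay above all 3 Hoxa-flox libraries, with Hoxa-del 1 the highest (log2 difference 0.69, SE 0.21, adjusted p = 0.729, limma). In WT cells it was at 4.39, 5.28 and 5.36 FPKM with the control virus and at 3.91, 3.68 and 4.70 with Cre. *Phgdh*, the entry enzyme of serine synthesis, was at 8.45, 7.91 and 11.2 FPKM in Hoxa-flox and 13.4, 11.95 and 10.8 in Hoxa-del, where Hoxa-flox 3 overlapped the Hoxa-del libraries (0.37, SE 0.15, adjusted p = 0.729, limma). *Pdia4*, a disulfide isomerase, was at 85.6, 83.0 and 78.5 FPKM in Hoxa-flox and at 47.9, 80.2 and 59.4 in Hoxa-del. Here Hoxa-del 2 overlapped the Hoxa-flox range (-0.42, SE 0.16, adjusted p = 0.729, limma). Without Hoxa-del 2, *Pdia4* was the 1 member called, among 787 genes (5.98%). *Pdia6*, of the same family, was at 138, 144 and 169 FPKM in Hoxa-flox and at 110.3, 127 and 133 in Hoxa-del, without overlap (-0.28, SE 0.13, adjusted p = 0.729, limma).

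The defining genes of both responses overlapped between Hoxa-flox and Hoxa-del. *Atf4* (chr15:80255184-80257541) was at 179, 183 and 212 FPKM in Hoxa-flox and at 153, 183 and 192 in Hoxa-del (log2 difference -0.12, SE 0.13, adjusted p = 0.786, limma). *Ddit3* was at 13.4, 12.9 and 6.15 FPKM, then 11.3, 12.2 and 10.5, with Hoxa-flox 3 low (0.13, SE 0.24, adjusted p = 0.866, limma). *Asns*, asparagine synthetase and a classic ATF4 target, was at 54.8, 50.7 and 47.7 FPKM and at 51.7, 69.9 and 39.9, a wider range in Hoxa-del that enclosed the Hoxa-flox values (0.04, SE 0.18, adjusted p = 0.945, limma). *Hspa5* was at 355, 320.0 and 409.7 FPKM in Hoxa-flox and at 293, 266 and 396 in Hoxa-del, with Hoxa-del 3 inside the Hoxa-flox range (-0.20, SE 0.17, adjusted p = 0.755, limma).

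Replicates of the floxed cells differed more than those of WT cells. The members' median SD (log2) was 0.0918 for WT-GFP and 0.0778 for WT-Cre libraries. It was larger for Hoxa-flox (0.242) and Hoxa-del (0.285), as it was over all genes (0.116 and 0.124 in the WT groups, 0.290 and 0.357 in the floxed groups). Among the stress regulators the median SD was 0.116 and 0.0825 in the WT groups and 0.606 and 0.545 in the floxed groups. *Trib3*, a pseudokinase induced by ATF4 and CHOP, was at 6.996, 9.17 and 2.63 FPKM in Hoxa-flox and at 5.501, 13.6 and 2.38 in Hoxa-del. *Chac1*, which degrades glutathione, was at 15.9, 14.6 and 6.49 FPKM and at 9.70, 24.8 and 5.97. *Ddit4* (REDD1), an inhibitor of mTORC1, was at 18.7, 21.4 and 6.07 FPKM and at 13.1, 30.4 and 6.31. All 3 were highest in Hoxa-del 2 and low in Hoxa-flox 3 and Hoxa-del 3, with Hoxa-del 1 between. *Ern1* (IRE1α), an ER stress sensor, was at 91.0 and 88.7 FPKM in Hoxa-flox 1 and Hoxa-flox 2 and 88.7 in Hoxa-del 2, and at 24.5, 49.8 and 31.9 in Hoxa-flox 3, Hoxa-del 1 and Hoxa-del 3. Its WT libraries lay between 79.99 and 93.9 FPKM, close to the first 3 and above the last 3.

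Library by library, the median stress regulator differed from the WT-GFP mean by 0.35, 0.20 and -0.78 on the log2 scale in Hoxa-flox 1, 2 and 3 and by -0.08, 0.65 and -0.61 in Hoxa-del 1, 2 and 3. It was thus above the WT-GFP mean in the 3 libraries with low *Mki67* and below it in the 3 with high *Mki67*, though Hoxa-del 1 only slightly. Hoxa-del 1 lay within the range of the WT-GFP libraries (0.07, -0.11 and -0.01). It lay above the WT-Cre libraries (-0.24, -0.23 and -0.19). The median ER chaperone was at -0.08, -0.15 and 0.26 for Hoxa-flox 1, 2 and 3 and at -0.07, -0.21 and 0.06 for Hoxa-del 1, 2 and 3. *Hsp90b1*, the ER HSP90 paralog, was at 142, 155 and 145 FPKM in the low *Mki67* libraries and at 279.7, 229.6 and 242 in the others. *Sars*, a seryl-tRNA synthetase, was at 104, 91.9 and 127 FPKM in the low *Mki67* libraries and at 59.5, 50.4 and 50.3 in the others. The sets were read from the same expression values, so these levels are a description, and the part of proliferation in them was not tested.

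**Figure D2:**
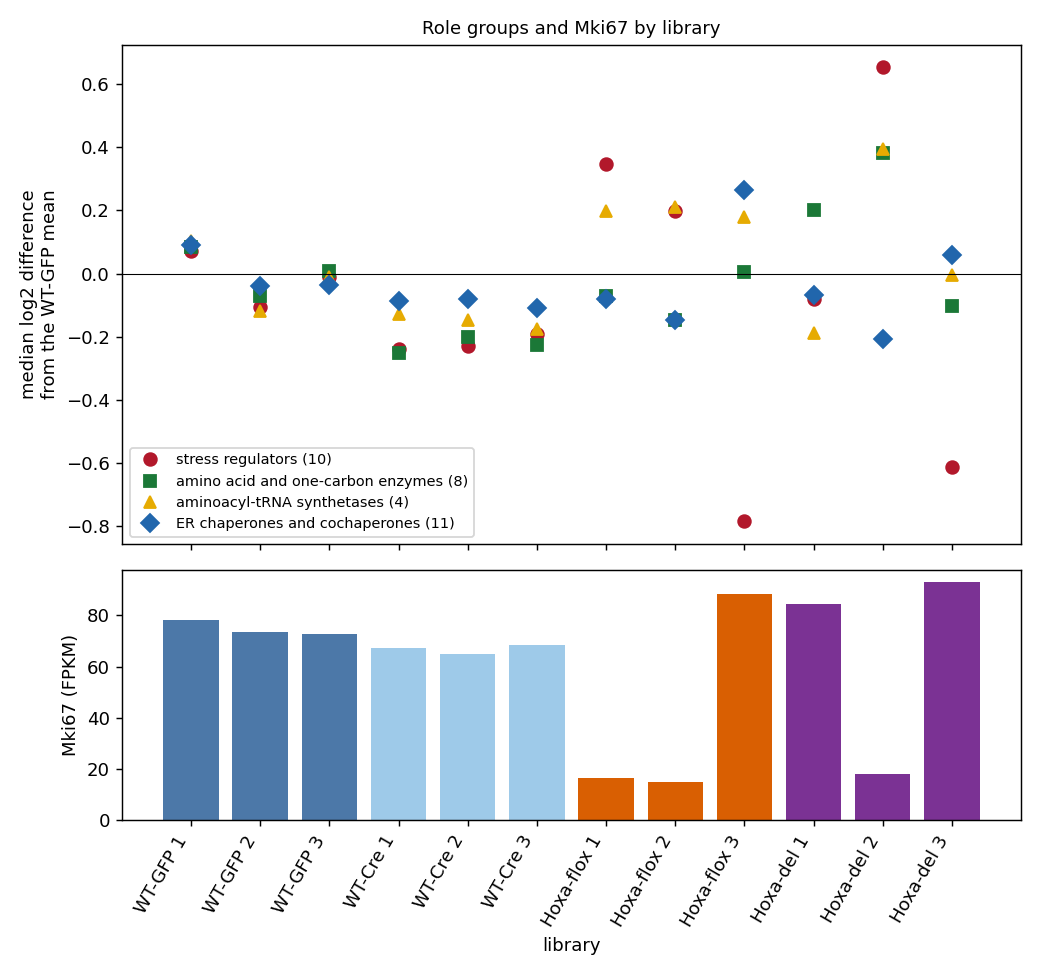
Upper panel: median log2 difference from the WT-GFP mean of 4 role groups (symbols) in each library; lower panel: *Mki67* level (FPKM) of the same library. Stress regulator medians of 0.35, 0.20 and 0.65 stand over the 3 low *Mki67* bars, and medians of -0.78, -0.08 and -0.61 over the other floxed-genotype bars.

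Held within these library sets, the difference between Hoxa-del and Hoxa-flox was not of one sign. The median member differed by 0.07 in the first set (1 Hoxa-del against 2 Hoxa-flox libraries) and by -0.18 in the second (2 against 1), and the median gene by 0.00 and -0.06. Of the 46 members, 9 were higher in Hoxa-del in both sets (19.6%, against 20.6% of all genes) and 10 lower in both (21.7%, against 26.9%). *Slc7a11* was among the former (0.57 and 0.67), with *Ddit4* (0.58 and 0.52), *Trib3* (0.69 and 0.37) and *Pycr1* (0.59 and 0.31). *Dnajc3* (-0.44 and -0.44), *Canx* (-0.40 and -0.39) and *Hspa5* (-0.34 and -0.27), all chaperone system genes, were among the latter. With 1 or 2 libraries in a cell these are values without a test. With the set as a term in limma, 0 members were called.

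In WT cells Cre left the members with small differences that mostly had 1 sign. With limma 0 of 46 members were called (2 of all genes, 0.0152%), and 1 had an unadjusted p under 0.05 (312 genes, 2.37%). The fit pooled the residual spread of all 4 groups, so SE and p in WT cells also carry the larger floxed spread. In turn SE and p of Hoxa-del against Hoxa-flox carry the smaller WT spread. The members' median SD was 0.0918 and 0.0778 in the WT groups and 0.242 and 0.285 in the floxed groups. A fit of the 2 WT groups alone called 0 members as well (5 genes, 0.038%). The median member was -0.13 lower on the log2 scale, with the median gene at -0.03. The estimate was below 0 for 41 of 46 members (89.1%) and for 57.2% of all genes. In 16 members (34.8%) every WT-Cre library lay below every WT-GFP library, as did 16.3% of all genes. In 1 member, the cochaperone *Dnajb9*, every WT-Cre library lay above (9.31% of all genes). With libraries rescaled to equal upper quartiles, 35 members (76.1%) and 48.3% of all genes were below 0, and by median ratios 37 (80.4%) and 50.6%.

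The stress regulators (median -0.22) and the amino acid enzymes (-0.26) had the lowest medians of the roles in WT-Cre, with all 10 and all 8 estimates below 0. All estimates were also below 0 for the 3 transporters (-0.06), the 4 sensors and *Xbp1* genes (-0.05) and the 3 degradation genes (-0.10). *Atf4* was at 178, 166 and 167 FPKM in WT-GFP and at 148, 146 and 148 in WT-Cre. These ranges did not overlap, and the difference did not pass the test with the pooled spread (-0.21, SE 0.13, adjusted p = 1, limma). *Phgdh* was at 13.3, 10.7 and 11.8 FPKM and then at 9.73, 8.05 and 9.02, again without overlap (-0.38, SE 0.15, adjusted p = 1, limma). *Shmt2*, the mitochondrial serine hydroxymethyltransferase, was at 61.4, 54.4 and 56.9 FPKM and at 48.9, 45.2 and 48.2, without overlap (-0.27, SE 0.15, adjusted p = 1, limma). *Psph*, the last enzyme of serine synthesis, was at 19.3, 16.3 and 20.8 FPKM and at 14.7, 16.8 and 14.7, with overlap (-0.27, SE 0.14, adjusted p = 1, limma). *Aars*, alanyl-tRNA synthetase, was at 63.5, 52.6 and 55.3 FPKM and at 52.6, 42.3 and 46.4, touching at 52.6 (-0.27, SE 0.16, adjusted p = 1, limma). *Hspa5* was at 322, 303 and 298 FPKM with the control virus and 303, 293 and 308 with Cre (-0.03, SE 0.17, adjusted p = 1, limma). *Ddit3* (14.4, 11.4 and 11.7 FPKM against 12.2, 9.51 and 11.8) and *Asns* (62.6, 58.4 and 62.2 against 57.1, 50.9 and 58.8) differed by -0.15 (SE 0.24) and -0.14 (SE 0.18), with overlap for both.

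**Figure D3:**
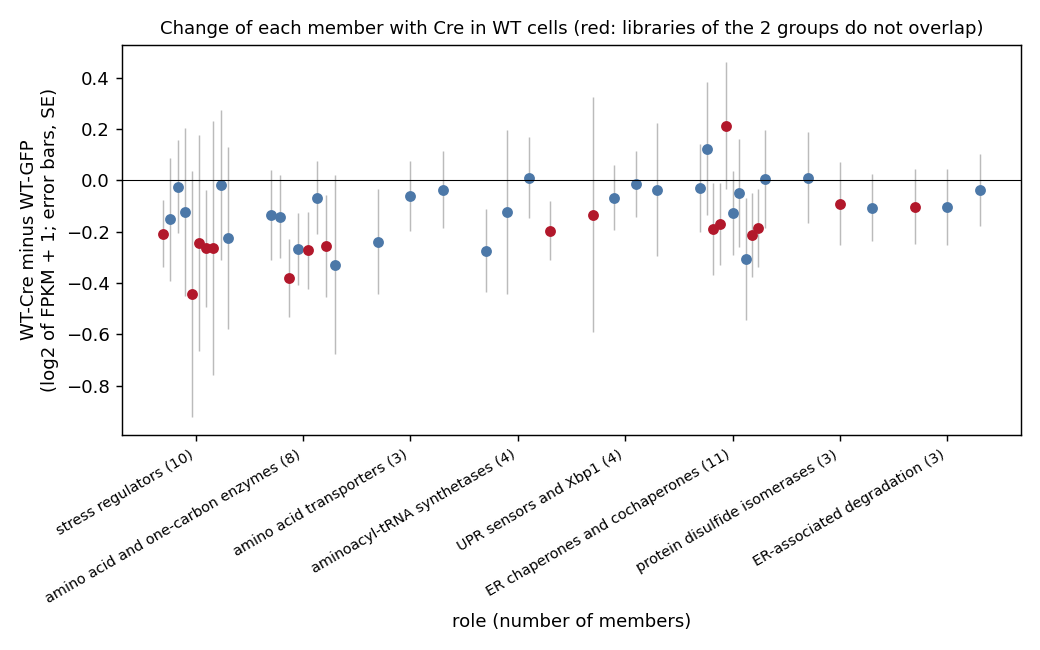
Difference of WT-Cre from WT-GFP for each of the 46 members by role, on the log2(FPKM + 1) scale with its SE (3 libraries a group). The SE comes from the fit of all 4 groups and so includes the spread of the floxed-genotype libraries. Red points are members whose libraries do not overlap between the groups. The points lie below 0 for 41 members, and most error bars reach or approach 0.

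The Cre difference itself was then compared between the genotypes. In the interaction 0 members were called (1 gene of 13169, 0.00759%), and 3 members had an unadjusted p under 0.05 (324 genes, 2.46%). The estimate of all 8 amino acid and one-carbon enzymes and all 3 transporters was above 0, with medians of 0.32 and 0.13. All 4 genes of the sensor and *Xbp1* role, all 3 disulfide isomerases and all 3 degradation genes were below 0, with medians of -0.06, -0.18 and -0.08. Over all roles 23 of 46 members were above 0, as were 47.1% of all genes, and the median member was at -0.01. *Phgdh* (0.75, SE 0.22), *Slc7a11* (0.93, SE 0.29), *Shmt2* (0.47, SE 0.21) and *Hyou1* (0.72, SE 0.33) had the smallest p, each with an adjusted p of 0.9997 in limma. The floxed part of this comparison differed between the library sets. From Hoxa-flox to Hoxa-del the median enzyme differed by 0.41 in the first set and by -0.05 in the second. The median transporter differed by 0.19 and -0.20. *Shmt2* (0.58 and -0.19) and *Hyou1* (0.85 and -0.21) changed sign between the sets. *Phgdh* (0.50 and 0.10) and *Slc7a11* (0.57 and 0.67) did not, and these are values without a test. The further row of *Hyou1* was at 84.1, 79.8 and 81.8 FPKM in Hoxa-flox and at 55.0, 89.4 and 76.5 in Hoxa-del. In that row only Hoxa-del 2 lay above the Hoxa-flox libraries and the others lay below, so the *Hyou1* estimate depends on the row. *Phgdh* was lower in WT-Cre than in WT-GFP and higher in Hoxa-del than in Hoxa-flox, but neither difference nor the interaction passed the test.

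Between the genotypes some members differed by a clear margin, in both directions, and in total about as often as other genes. With the control virus 12 of 46 members (26.1%) were called in Hoxa-flox against WT-GFP, against 26.8% of all genes. Of these 8 were higher (17.4% of members, against 13.3% of all genes) and 4 lower (8.7%, against 13.5%). With Cre 12 members (26.1%) were called in Hoxa-del against WT-Cre, against 27.2% of all genes. There 10 were higher (21.7% of members, against 13% of all genes) and 2 lower (4.35%, against 14.2%). The split by direction was not tested. The 2 comparisons have no library in common, and 9 members (19.6%) were called in the same direction in both, against 20.7% of all genes. These counts include *Vldlr*, which passed the filter on low values only through the floxed-genotype groups; without it 11 of 45 members (24.4%) were called in each comparison. The median member differed by 0.02 and 0.09 and the median gene by 0.00 in each. Single libraries decided the members' medians: the first ran from -0.03 without WT-GFP 2 to 0.12 without Hoxa-flox 3 and was also below 0 without Hoxa-flox 2 (-0.02), and the second from -0.01 without Hoxa-del 2 to 0.19 without Hoxa-del 1. *Atf4*, *Ddit3*, *Asns* and *Hspa5* were called in neither comparison.

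*Atf4* stood at 179 to 212 FPKM in Hoxa-flox, just above the WT-GFP range of 166 to 178 (log2 difference 0.16, SE 0.13, adjusted p = 0.405, limma), and at 153 to 192 in Hoxa-del, above the WT-Cre range of 146 to 148 (0.25, SE 0.13, adjusted p = 0.196, limma). *Ddit3* differed by -0.25 (SE 0.24, adjusted p = 0.479, limma) and 0.02 (SE 0.24, adjusted p = 0.955, limma), and its ranges overlapped in both. *Asns* differed by -0.26 (SE 0.18, adjusted p = 0.321, limma), with every Hoxa-flox library below every WT-GFP library, and by -0.08 (SE 0.18, adjusted p = 0.78, limma), with overlap. *Hspa5* differed by 0.23 (SE 0.17, adjusted p = 0.368, limma) and 0.06 (SE 0.17, adjusted p = 0.836, limma), with overlap in both.

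*Vldlr* (chr19:27216484-27254231), the very low density lipoprotein receptor, which ATF4 can induce, differed most. It was at 0.115, 0.0411 and 0.221 FPKM in WT-GFP and at 0.0950, 0 and 0.248 in WT-Cre, near the detection limit. In Hoxa-flox it was at 23.6, 21.7 and 13.9 FPKM and in Hoxa-del at 17.8, 21.4 and 8.64, so all 6 floxed-genotype libraries lay far above all 6 WT libraries. *Vldlr* passed the filter on low values only through the floxed-genotype groups, so its calls are a description and carry no test here. On the log2(FPKM + 1) scale, which understates such a change, its difference was 4.17 (SE 0.29) with the control virus and 3.84 (SE 0.29) with Cre. *Ppp1r15a* (GADD34), which directs dephosphorylation of eIF2α, was at 23.5, 30.3 and 9.74 FPKM in Hoxa-flox against 9.99, 8.38 and 11.0 in WT-GFP, with Hoxa-flox 3 inside the WT-GFP range. It was not called in either comparison.

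Serine synthesis split. *Psat1* (chr19:15904678-15947337), its middle enzyme, was at 43.5, 47.8 and 47.7 FPKM in WT-GFP and at 81.6, 79.6 and 121 in Hoxa-flox, and at 38.4, 44.99 and 42.4 in WT-Cre and 114, 101 and 103 in Hoxa-del. All floxed-genotype libraries lay above all WT libraries, by 0.98 (SE 0.16, adjusted p = 0.00103, limma) and 1.32 (SE 0.16, adjusted p = 0.000139, limma). *Psph* (chr5:129765558-129787449), the last enzyme, was at 9.49, 7.30 and 7.67 FPKM in Hoxa-flox and at 9.12, 7.68 and 8.39 in Hoxa-del, below all 6 WT libraries (14.7 to 20.8). It was lower by 1.11 on the log2 scale (log2 difference -1.11, SE 0.14, adjusted p = 0.000169, limma) with the control virus, and the difference with Cre was -0.81 (SE 0.14, adjusted p = 0.0016, limma). *Phgdh*, the first enzyme, differed by -0.35 (SE 0.15, adjusted p = 0.113, limma) and 0.39 (SE 0.15, adjusted p = 0.0792, limma) and was called in neither. *Psph* overlaps *Cct6a* and *Psat1* overlaps *Gm3329* on the other strand.

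Proline synthesis and one-carbon genes were higher where called. *Aldh18a1* (chr19:40550257-40588463), which makes the proline precursor, was at 20.5, 18.5 and 16.6 FPKM in WT-GFP and at 41.8, 41.4 and 35.2 in Hoxa-flox, and at 15.5, 14.5 and 15.9 in WT-Cre and 31.0, 52.2 and 28.6 in Hoxa-del. No floxed-genotype library reached down to a WT library, and the differences were 1.05 (SE 0.20, adjusted p = 0.00246, limma) and 1.18 (SE 0.20, adjusted p = 0.00123, limma). *Pycr1*, the next enzyme of proline synthesis, was at 7.41, 10.9 and 3.42 FPKM in Hoxa-del and 2.67, 3.99 and 1.84 in WT-Cre. The groups overlapped, and the call was marginal (1.03, SE 0.35, adjusted p = 0.0498, limma). It was lost in 8 of 16 alternatives, among them without Hoxa-del 1, Hoxa-del 2, WT-Cre 1 or WT-Cre 3 (highest adjusted p = 0.167). *Shmt2* (chr10:127517123-127522444) was at 68.3, 86.0 and 64.8 FPKM in Hoxa-del against 48.9, 45.2 and 48.2 in WT-Cre, without overlap (0.60, SE 0.15, adjusted p = 0.0123, limma). In Hoxa-flox it was at 58.1, 56.3 and 76.3, overlapping WT-GFP (0.13, SE 0.15, adjusted p = 0.578, limma).

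Of the transporters, *Slc7a1* (chr5:148327410-148399904), the cationic amino acid carrier CAT-1, was at 19.3, 19.0 and 20.4 FPKM in WT-GFP and at 26.8, 27.5 and 39.2 in Hoxa-flox. With Cre it was at 19.5, 17.3 and 20.5 in WT-Cre and at 32.6, 30.5 and 35.2 in Hoxa-del. The genotypes did not overlap (0.62, SE 0.15, adjusted p = 0.0101, limma, and 0.75, SE 0.15, adjusted p = 0.0038, limma). *Slc7a11* was lower in Hoxa-flox than in WT-GFP, at the values given above and without overlap (-0.61, SE 0.21, adjusted p = 0.0477, limma). That call was lost in 9 of 16 alternatives, including without any one of WT-GFP 1, 2 and 3 or Hoxa-flox 1 or 2 (highest adjusted p = 0.166). In Hoxa-del it differed from WT-Cre by 0.32 (SE 0.21, adjusted p = 0.285, limma). *Gars*, glycyl-tRNA synthetase, was the 1 called synthetase, at 57.3, 69.2 and 59.0 FPKM in Hoxa-del and 48.8, 47.1 and 48.4 in WT-Cre, without overlap (0.35, SE 0.12, adjusted p = 0.0435, limma). The call was lost in 7 of 16 alternatives, among them without WT-Cre 1, 2 or 3, Hoxa-del 2 or Hoxa-del 3 (highest adjusted p = 0.147).

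**Figure D4:**
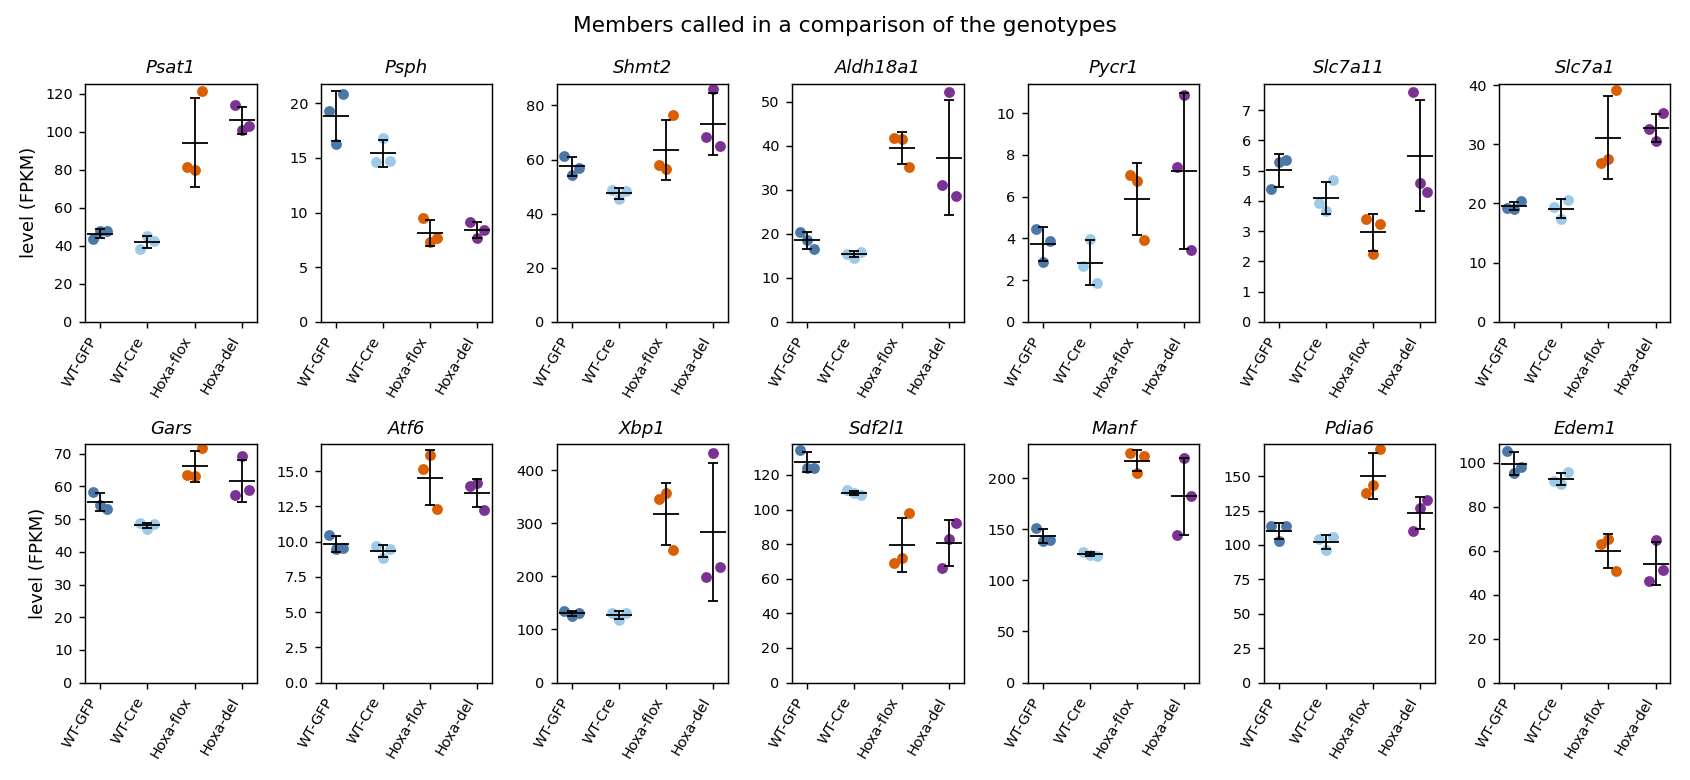
FPKM of 14 of the 15 members called in a comparison of the genotypes (*Vldlr*, near 0 in WT cells, is not drawn), on linear axes from 0. Points are libraries, bars mean ± SD of 3; *Psat1*, *Aldh18a1*, *Slc7a1*, *Atf6* and *Xbp1* are higher and *Psph*, *Sdf2l1* and *Edem1* lower in both floxed-genotype groups than in both WT groups, without overlap.

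Of the unfolded protein response sensors and *Xbp1*, *Xbp1* and *Atf6* were higher in the floxed-genotype cells. *Xbp1* (chr11:5520659-5525893), whose mRNA IRE1α splices, was at 134, 125 and 131 FPKM in WT-GFP and at 345, 357 and 249.7 in Hoxa-flox. It was at 131, 119 and 132 in WT-Cre and at 199, 433 and 217 in Hoxa-del. All floxed-genotype libraries lay above all WT libraries, and the 3 with low *Mki67* (345, 357 and 433) stood highest. The genotype difference of *Xbp1* was 1.26 with the control virus (SE 0.26, adjusted p = 0.00418, limma) and 1.06 with Cre (SE 0.26, adjusted p = 0.0112, limma). The second call was lost in a fit of the 2 groups alone (adjusted p = 0.0548). Gene-level values do not separate spliced from unspliced *Xbp1*. *Xbp1* also marks plasma cells, whose other markers *Jchain*, *Tnfrsf17*, *Mzb1* and *Prdm1* were at or near 0 in the 6 floxed-genotype libraries (at most 0.18 FPKM). *Derl3*, also on that list, was at 0.702, 0.291 and 0.209 FPKM in Hoxa-flox and at 0.402, 1.71 and 0.512 in Hoxa-del, against 0 to 0.555 in WT libraries, and was highest in Hoxa-del 2, as *Xbp1* was. *Sdc1* was at 18.2, 21.4 and 14.02 FPKM and *Irf4* at 3.07, 3.62 and 3.98 in the 3 low *Mki67* libraries, and at 1.08 to 2.07 and 0.419 to 0.844 in the other 3.

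*Atf6* (chr1:170704674-170867771) was at 10.5, 9.47 and 9.54 FPKM in WT-GFP and at 15.1, 16.2 and 12.3 in Hoxa-flox, and at 9.68, 8.83 and 9.47 in WT-Cre and 13.9, 14.1 and 12.3 in Hoxa-del. The genotypes did not overlap (0.52, SE 0.13, adjusted p = 0.0115, limma, and 0.48, SE 0.13, adjusted p = 0.0162, limma). The first call was lost without WT-GFP 2, WT-GFP 3 or Hoxa-flox 2 and with only Hoxa-flox 3 on the floxed side (highest adjusted p = 0.0863). The second was lost without WT-Cre 2 and with only the 2 groups fitted (highest adjusted p = 0.062). *Eif2ak3* (PERK) and *Ern1* were called in neither comparison. *Eif2ak3* was at 12.6, 10.7 and 11.3 FPKM in Hoxa-del and at 15.6, 13.7 and 13.8 in WT-Cre, without overlap. With the control virus its ranges overlapped. Both genes also had further rows of lower level. The lowest *Ern1* row was at 3.47 to 7.73 FPKM in WT and at 0.438 to 2.87 in floxed-genotype libraries. The next was at 5.36 to 13.5 and at 0.470 to 7.49. That of *Eif2ak3* was at 2.49 to 5.72 and at 0 to 3.75.

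The ER folding genes went in different directions, and most were not called. *Manf*, a secreted ER stress factor that binds BiP, was at 151, 139 and 139.5 FPKM in WT-GFP and at 225, 205 and 222 in Hoxa-flox, and at 128, 125 and 124 in WT-Cre and 144, 219.7 and 183 in Hoxa-del. The genotypes did not overlap within a virus (0.60, SE 0.15, adjusted p = 0.0136, limma, and 0.51, SE 0.15, adjusted p = 0.0285, limma), but Hoxa-del 1 lay within the WT-GFP range. The calls were lost without WT-GFP 2 or WT-GFP 3 (highest adjusted p = 0.055) and, with Cre, without WT-Cre 1, 2 or 3 or Hoxa-del 3 or with only the 2 groups fitted (highest adjusted p = 0.123). *Sdf2l1*, a cofactor of BiP, was at 134, 124 and 124 FPKM in WT-GFP and at 69.1, 72.1 and 97.7 in Hoxa-flox, without overlap (-0.69, SE 0.16, adjusted p = 0.009, limma). Between WT-Cre (111, 109 and 109) and Hoxa-del (66.1, 82.9 and 92.4) the ranges were apart as well, and the difference did not pass (-0.45, SE 0.16, adjusted p = 0.0588, limma). With only Hoxa-flox 3 on the floxed side the *Sdf2l1* call was lost (adjusted p = 0.0994). *Dnajb11*, another BiP cochaperone, was lower without overlap in both comparisons and missed the threshold in both (-0.46, adjusted p = 0.0603, limma, and -0.48, adjusted p = 0.0521, limma). The other 8 chaperones, with *Hspa5*, *Hsp90b1*, *Calr* and *Canx* among them, were called in neither.

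*Pdia6* was at 114, 103 and 114 FPKM in WT-GFP and at 138, 144 and 169 in Hoxa-flox, without overlap (0.44, SE 0.13, adjusted p = 0.0276, limma). The call was lost without WT-GFP 1, 2 or 3 or Hoxa-flox 2 or 3 (highest adjusted p = 0.111). Between WT-Cre and Hoxa-del it differed by 0.26 (SE 0.13, adjusted p = 0.16, limma). *Edem1* (chr6:108828641-108859356), which hands misfolded glycoproteins to degradation, was at 105, 95.5 and 98.3 FPKM in WT-GFP and at 63.0, 65.4 and 51.0 in Hoxa-flox, and at 91.8, 90.2 and 95.9 in WT-Cre and 46.0, 64.9 and 51.3 in Hoxa-del. All floxed-genotype libraries lay below all WT libraries (-0.74, SE 0.15, adjusted p = 0.0037, limma, and -0.78, SE 0.15, adjusted p = 0.00271, limma). *Herpud1* and *Sel1l*, of the same degradation machinery, were called in neither.

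**Figure D5:**
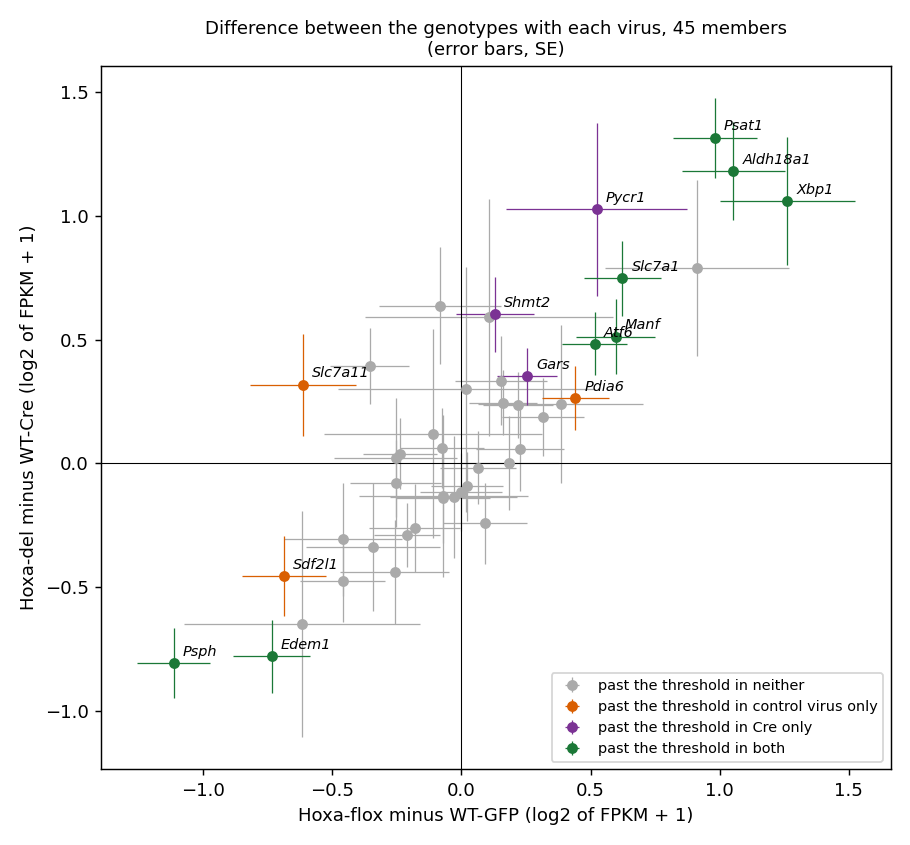
Genotype difference with the control virus (x) against that with Cre (y) for 45 members (*Vldlr*, at 4.17 and 3.84, is off the range), on the log2(FPKM + 1) scale; bars are SE and colour gives where the adjusted p was under 0.05. *Psat1*, *Aldh18a1*, *Xbp1*, *Slc7a1*, *Atf6* and *Manf* lie at the upper right, *Psph* and *Edem1* at the lower left, and *Slc7a11* has opposite signs.

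Calls among members with a promoter element are read against 26.8% of all genes in Hoxa-flox and 27.2% in Hoxa-del. Of the 7 members with an ER stress element, 1 (*Pdia6*, 14.3%) was called in Hoxa-flox against WT-GFP and 0 in Hoxa-del against WT-Cre, and the median of the 7 differed by 0.15 and 0.00. Of the 9 with the ATF4 and CHOP core, 1 (*Slc7a11*, lower, 11.1%) was called with the control virus and 2 (*Pycr1* and *Gars*, higher, 22.2%) with Cre, with medians of -0.07 and 0.12.

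Other genes of the same pathways came from lists that held no member. The amino acid response list was called at 20.7% for Hoxa-flox against WT-GFP and at 31% for Hoxa-del against WT-Cre. The ER list was called at 19.4% and 22.6%, beside 26.8% and 27.2% of all genes. Among 29 other amino acid response genes, Hoxa-flox had 5 called higher and 1 lower than WT-GFP, and Hoxa-del had 8 higher and 1 lower than WT-Cre. *Mthfd1l*, a mitochondrial one-carbon enzyme, was higher by 0.64 (SE 0.12, adjusted p = 0.00181, limma) and 0.96 (SE 0.12, adjusted p = 0.000115, limma). *Got1*, the cytosolic aspartate aminotransferase, was higher by 1.004 (SE 0.19, adjusted p = 0.00217, limma) with the control virus. The 1 lower gene of each comparison was *Atf3*, a stress-induced factor of the ATF4 network, whose WT-GFP libraries were at 11.3, 12.2 and 10.6 FPKM and its WT-Cre libraries at 13.96, 12.6 and 12.9. It was at 3.81, 3.86 and 1.47 FPKM with the control virus in floxed cells, and at 1.57, 3.93 and 1.11 with Cre. All floxed-genotype libraries lay below all WT libraries (-1.67, SE 0.32, adjusted p = 0.00254, limma, and -2.24, SE 0.32, adjusted p = 0.000386, limma), and for Hoxa-flox the gene was named after its values were seen. Of 31 other ER folding and degradation genes, 6 were higher and 0 lower with the control virus, and 6 higher and 1 lower with Cre. That lower gene was *Txndc11* (-0.57, SE 0.13, adjusted p = 0.0075, limma), named after its value was seen. *Txndc5*, a disulfide isomerase of the ER, was higher by 1.74 (SE 0.15, adjusted p = 1.17e-05, limma) and 1.49 (SE 0.15, adjusted p = 4.15e-05, limma). *Mbtps1* (site-1 protease), which cleaves ATF6, was higher by 0.94 (SE 0.16, adjusted p = 0.0011, limma) with the control virus, and *Serp1*, a translocon-associated ER protein, by 1.35 (SE 0.26, adjusted p = 0.00331, limma) with Cre. In both Cre comparisons 0 genes of these lists were called with limma, and at an unadjusted p under 0.05 there was 1 of each list in the floxed cells and 0 and 1 in the WT cells.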

How the data were processed

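RNA of 12 libraries was sequenced after ribosomal RNA removal, with a stranded kit, per the labels' protocols. STAR, Cufflinks, Cuffdiff 2.2.2.20150701, GRCm38 and mm10 are named, per the submitters' processing notes. No source used here gives the unit, and the deposited values were taken as FPKM; 0 columns lacked a sample. Of repeated symbols (6 members) the row of highest mean entered. Depth was estimated from the step that 1 fragment makes in low values.

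Values entered the test as log2(FPKM + 1). The 13169 symbols averaging 1 FPKM or more were fitted together for all 4 groups by limma-trend (limma 3.58.1 under R 4.3.3), with Benjamini-Hochberg adjustment over all of them and a threshold of 0.05 for a call. On simulated data for the 13169 genes, the fit recovered 50%, 46% and 21% of changes of 1 on the log2 scale, and 90%, 92% and 77% of changes of 2, for Cre in floxed cells, Cre in WT cells and the interaction, and for the genotypes 53% and 79% with the control virus and 51% and 88% with Cre. The simulation drew independent noise with the same SD in all libraries for a gene. It held neither the larger spread of the floxed groups (median SD 0.290 and 0.357, against 0.116 and 0.124 in WT) nor their library sets. The rates therefore do not give the power of these comparisons. Tables used Python 3.11.15, pandas 2.3.3 and numpy 2.4.6. Full statistics are given for members called between genotypes, the 4 with the smallest p of each contrast, and *Atf4*, *Ddit3*, *Asns*, *Hspa5* and *Xbp1*; of other lists the 2 smallest adjusted p are named. The members and lists were chosen with earlier results of these data known. Replicates may be technical: the p-values then describe no more than how these libraries vary. Motifs were counted in RefSeq promoters (GRCm38.p6); gene coordinates are GENCODE M21 (GRCm38), matched by symbol.

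Alternatives were a pseudocount of 0.1, no filter, upper-quartile and median-ratio scaling, array weights, only the 2 groups compared, the replicate number or the library set as a term, summed rows and each library left out. Fits with only 1 set of floxed-genotype libraries were chosen after seeing the data.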

Additional observations from a re-analysis of the deposited data

How the results depend on the processing

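Counts of called members (limma) held within 1.5 times under pseudocount, filter, scaling and summed rows in all 5 comparisons. Array weights, which gave Hoxa-flox 3 and Hoxa-del 2 weights of 0.0967 and 0.0881, raised them to 21 for Hoxa-del against Hoxa-flox (39.3% of genes called), 10 for the interaction (26.2%) and 33 for Hoxa-flox against WT-GFP (69.8%); the cause was not tested. Hoxa-flox 3 and Hoxa-del 2 were each the library of their group in the other *Mki67* set. The weighted fit thus mostly set Hoxa-del 1 and Hoxa-del 3 (high *Mki67*) against Hoxa-flox 1 and Hoxa-flox 2 (low *Mki67*). Virus and library set cannot be told apart in it. With array weights *Trib3* and *Ddit4* turned to -0.92 and -0.98 in Hoxa-del against Hoxa-flox, and *Chac1* and *Dnajb9* to 0.29 and 0.28 in Hoxa-flox against WT-GFP. With only the 2 groups fitted, 7 members (15.2%) were called in Hoxa-del against WT-Cre, beside 18.2% of all genes. The low and high *Mki67* sets come from the expression values themselves. Each leaves 1 arm with 1 library, assumed to vary like the other groups (Hoxa-del 2 in the low *Mki67* set, Hoxa-flox 3 in the high). With only the low *Mki67* set, 27 and 33 members were called with the control virus and Cre (56.4% and 57.6% of genes), and *Nupr1*, *Asns* and *Herpud1* turned to 0.50, 0.33 and 0.28 with Cre. With only the high *Mki67* set, 18 and 19 were called (42.7% and 45.7% of genes), and *Ddit4* turned to -1.03 with the control virus. Leaving out 1 library gave 0 to 1 members in Hoxa-del against Hoxa-flox (0.0152% to 5.98% of genes) and 0 in WT-Cre against WT-GFP and in the interaction. It gave 8 to 15 members in Hoxa-flox against WT-GFP (18.3% to 31.9% of genes) and 9 to 12 in Hoxa-del against WT-Cre (19.4% to 30.3%). The numbers in the titles did not pair the samples (correlations of deviations -0.30, 0.60 and 0.72 in floxed cells and 0.01, -0.01 and 0.09 in WT cells), and 3 of 6 samples of each genotype correlated best with their own number. With the replicate block 0, 0 and 0 members were called for Cre and the interaction. Between genotypes 12 and 12 were called (27.3% and 27.6% of genes), 11 shared with the unblocked fit in each. Depth was lowest in WT-Cre 2, Hoxa-del 2 and Hoxa-del 1 (4.36 M, 6.99 M and 8.51 M fragments), which limits the precision of low members such as *Pycr1* and *Slc7a11* there.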
